A study of Mus musculus with 2 samples.

Results

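7 fuel and energy genes, of 27998 genes counted, were followed in lateral wall fibrocytes of the mouse cochlea. They are Ppargc1a, Bdh1, Plin4, Ldha, Ldhb, Aldoc and Ckb. They were picked from the same measurement that is described here: the level of each gene in cells marked by Otos, Car3 and Kcnk2, set against other marker-defined types, also with cells over 10% mitochondrial transcripts left out. The levels of the 7 genes are therefore a description and carry no test. Of the 7, 6 were high in these cells, which follows from how they were picked and is no check on the label. Aldoc was close to absent from these fibrocytes.

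Single cells were prepared by trypsin digestion of cochleae from wild-type C57BL/6 mice at postnatal day 20, with 5 to 8 mice given per preparation, and were sequenced as 2 libraries of 1 group. There was no treated or mutant group, so every comparison is between cell types of the same suspension. The libraries held 1610 and 720 barcodes with 20212520 and 7094752 unique molecular identifiers (UMIs, one per captured transcript molecule), of which 1329 and 640 cells were used, with medians of 10601 and 6115.5 UMIs per cell. The libraries shared 2 barcodes. The labels do not say whether the libraries came from separate mice, so the spread between these libraries may be technical. SDs measure that spread. The p-values come from a fit with the library as a block, which takes out a shift shared by all classes of a library. They rest on the remaining spread of classes between libraries, estimated over all classes and moderated across genes.

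Fibrocytes of the cochlear lateral wall are connective tissue cells that pass potassium through gap junctions towards the stria vascularis, the epithelium that makes the endocochlear potential, and this transport consumes ATP. Cells make ATP by splitting glucose to pyruvate, which is either reduced to lactate by lactate dehydrogenase or burned in mitochondria together with fatty acids and ketone bodies. Ppargc1a encodes PGC-1α, a coactivator that drives mitochondrial gene expression in tissues such as muscle and brown fat. Bdh1 encodes the mitochondrial dehydrogenase that interconverts β-hydroxybutyrate and acetoacetate, and Plin4 encodes a coat protein of lipid droplets. Ldha and Ldhb encode the subunits of lactate dehydrogenase, with the LDHA subunit favoured in tissues that make lactate and the LDHB subunit in tissues that oxidise it. Aldoc encodes aldolase C, the glycolytic aldolase known from brain. Ckb encodes the brain-type cytosolic creatine kinase, which regenerates ATP from phosphocreatine.

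Cells were grouped by clustering on genes that did not include the 7 described here, their pathway lists or the mitochondrial transcripts. The cluster named fibrocyte-like held 47 cells in library 1 and 33 in library 2, which is 3.54% and 5.16% of the cells, with 732847 and 459486 UMIs. All 3 markers were well above their fibroblast-like levels: Kcnk2 stood at 2478 and 2046 CPM (UMIs scaled to a total of 1e6) against 213 and 156 CPM in connective tissue fibroblast-like cells, and Otos at 1160 and 522 CPM against 158 and 82.2 CPM. The markers chose the class, so these values only check its name. The clustering gave 19 classes, of which 10 had at least 10 cells in each library and entered the statistical fit. Classes are called "-like" after their markers, and otherwise by their leading genes.

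The libraries differed in the purity of the fibrocyte-like class. Markers of stria marginal cells were near absent in library 1, where 2 of 7 were seen with 5.46 CPM in sum and Kcne1, Kcnq1 and Bsnd were at 0. In library 2, 6 of 7 were seen with 559 CPM in sum. Fibroblast-like cells held 1.67 and 6.09 CPM of the same list. In that library 9 cells had more marginal than fibrocyte marker UMIs, with Kcne1 at 3073 CPM, Otos at 32.5 CPM and Car3 at 0. The values these cells moved most are given with and without them, and their part in other results was not tested. The class was also rich in mitochondrial transcripts, with a median per cell of 9.06% and 10.3% against 3.06% and 3.21% in fibroblast-like cells.

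Ppargc1a, the mitochondrial coactivator, was about as high in both libraries and low nearly everywhere else. Fibrocyte-like cells held 167.8 CPM in library 1, from 123 UMIs, and 169.8 CPM in library 2, from 78 UMIs. Fibroblast-like cells held 9.18 and 4.06 CPM. The mean of 169 ± 1.35 CPM (SD, n = 2 libraries) was 25.5 times the mean of fibroblast-like cells, and both libraries lay above every library of the 9 other classes in the fit.

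The next classes down for Ppargc1a were both epithelial. Non-sensory epithelium led by Rnase1, Dkk2 and Cndp2 held 25.6 ± 1.43 CPM, and epithelium led by Ucma, Frzb and Lect1 held 21.3 ± 8.88 CPM (SD, n = 2 each), so these neighbours did not differ beyond their spread. In 4 of the classes no UMI was counted. Ppargc1a was not restricted to fibrocytes once small classes were counted. The 6 spiral ganglion neuron-like cells of library 1 held 481 CPM (exact 95% Poisson interval 395 to 581, which covers counting error only), and the 19 stria intermediate-like cells of library 2 held 220 CPM (132 to 343). Of the 34 library sums over all other classes, 32 lay below both fibrocyte-like values.

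In single cells, a Ppargc1a UMI was found in 63.8% and 69.7% of fibrocyte-like cells, against 1.29% and 2.38% of fibroblast-like cells and none of the 410 and 39 erythroid-like cells, set beside them as a check on free RNA. The 0 of 410 allows a share of cells with a UMI of up to 0.896% (exact binomial 95% limit). Median depth was 12290 and 11146 UMIs in fibrocyte-like cells, against 5594 and 5512.5 in fibroblast-like cells and 10689 and 12729 in erythroid-like cells. After every cell was thinned to 3000 UMIs the fibrocyte-like shares were 31.9% and 36.4%. The level was uneven within the class. In library 1 the highest counts were 14, 13 and 12 Ppargc1a UMIs, in deep cells of 34605, 23046 and 27938 UMIs, while a cell of 21354 UMIs held none. The part of depth in this was not tested.

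**Figure D1:**
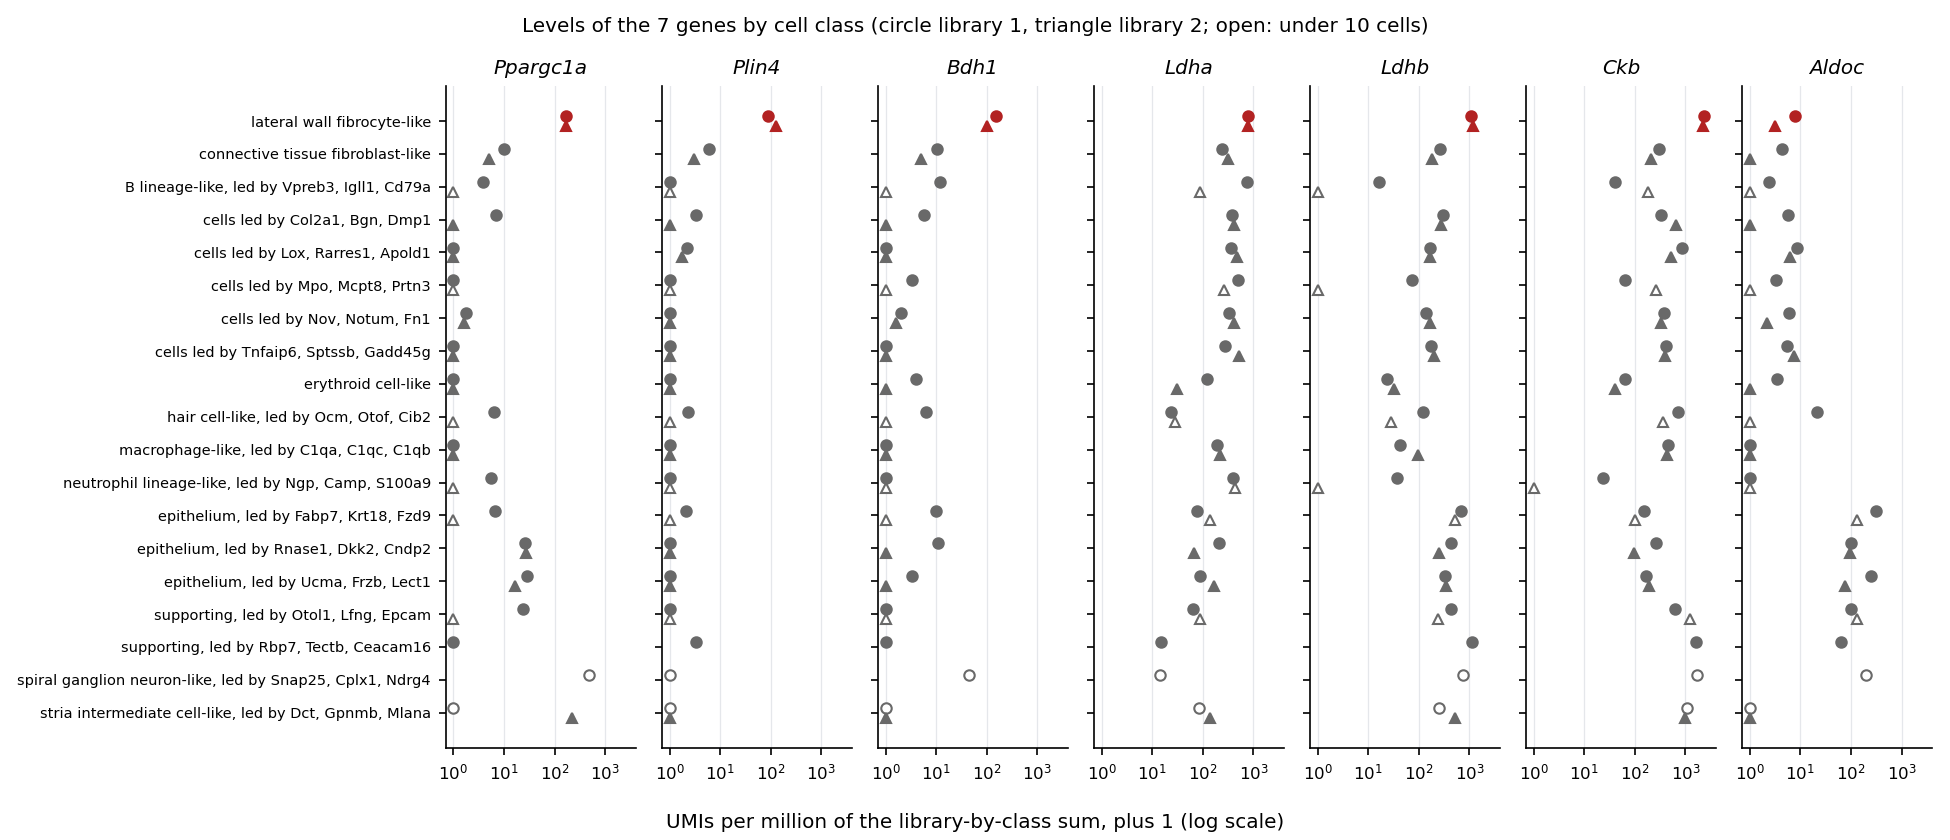
Level of each gene in CPM plus 1 on a log axis, with a panel per gene, a row per class, a circle for library 1 and a triangle for library 2 (open where the class has under 10 cells). The fibrocyte-like points in the top row lie to the right of all other points for Plin4, Bdh1, Ldha and Ckb, are passed by neuron-like (481 CPM) and stria intermediate-like (220 CPM) cells for Ppargc1a and met by supporting cell-like cells led by Rbp7 (1098 CPM) for Ldhb, and lie left of the epithelial classes for Aldoc (6.82 and 2.18 CPM).

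Proximal promoters of 3 of the genes that were high in these cells are printed, each for a single annotated start. The UMI counts are per gene and do not show which start these cells used, so differences between the promoters hold for the windows printed. These are the 250 bases before the transcription start, from RefSeq on GRCm38.p6, written 5′ to 3′ on the gene's strand. Capitals mark matches, on either strand, to the cAMP response element (CRE, TGACGTCA), the E-box CACGTG and the hypoxia response core ACGTG, which every such E-box also contains. Ppargc1a lies at chr5:51454250-51567726 on the minus strand, Ldha at chr7:46841475-46855627 on the plus strand and Ldhb at chr6:142490249-142507957 on the minus strand.
Ldha chr7:46845554-46845803 (+): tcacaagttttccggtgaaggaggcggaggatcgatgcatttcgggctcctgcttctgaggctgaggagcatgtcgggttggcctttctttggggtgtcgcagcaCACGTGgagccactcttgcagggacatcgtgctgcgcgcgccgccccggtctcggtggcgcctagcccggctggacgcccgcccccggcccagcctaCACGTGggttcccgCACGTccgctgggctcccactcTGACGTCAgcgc
Ldhb chr6:142507958-142508207 (-): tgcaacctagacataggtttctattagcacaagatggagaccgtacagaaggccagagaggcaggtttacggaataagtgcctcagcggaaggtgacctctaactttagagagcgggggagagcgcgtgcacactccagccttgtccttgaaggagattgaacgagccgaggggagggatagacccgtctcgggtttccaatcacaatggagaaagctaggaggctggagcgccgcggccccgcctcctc
Ppargc1a chr5:51567726-51567975 (-): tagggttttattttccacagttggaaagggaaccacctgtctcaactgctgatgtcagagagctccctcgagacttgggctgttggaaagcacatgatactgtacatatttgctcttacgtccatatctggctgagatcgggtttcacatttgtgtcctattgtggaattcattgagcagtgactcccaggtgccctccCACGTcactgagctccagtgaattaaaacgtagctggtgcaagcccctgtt

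The Ldha promoter shown was dense in CpG, with 30 CpG and 67.3% GC in its window of 300 bases (250 before and 50 after the start). It held a CRE 12 bases before the start and E-boxes 145 and 48 bases before it. A second annotated Ldha window, not printed, had 13 CpG and 56.7% GC and none of the searched motifs. The Ldhb window had 17 CpG and 57.3% GC, and none of the searched motifs. The Ppargc1a window had 5 CpG and 48.7% GC, below the median of 52.7% over all windows, with a single hypoxia core 51 bases before the start. Across 32851 mouse promoter windows, 1.79% held the CRE, 7.15% the E-box and 19.6% the hypoxia core. Over the 10 windows annotated for the 7 genes, the hypoxia core was in windows of Ldha, Ppargc1a and Aldoc, where the Aldoc match lies after the start. The nuclear receptor element of the estrogen-related receptors (TCAAGGTCA, in 0.423% of windows), the PPAR direct repeat (AGGTCA repeated after 1 base, 0.0396%) and the NRF1 site (0.971%) were in none of the 10. These are letter matches and not binding measurements.

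Among the partners of PGC-1α, Esrra was higher in fibrocyte-like than in fibroblast-like cells. The 6 spiral ganglion neuron-like cells, a class outside the fit, held more Esrra than either fibrocyte-like library, at 134 CPM. Esrra, the estrogen-related receptor alpha with which PGC-1α acts on mitochondrial genes, held 69.6 and 80.5 CPM, a mean of 75.1 ± 7.73 CPM against 11.6 ± 4.88 CPM in fibroblast-like cells (SD, n = 2 each), a log2 fold change of 2.65 ± 0.38 (SE, adjusted p = 4.0e-08 by the edgeR quasi-likelihood test with Benjamini-Hochberg adjustment). Gabpa, a subunit of nuclear respiratory factor 2, and Prkaa2, a catalytic subunit of the AMP-activated kinase, were also higher, by 1.25 ± 0.36 and 1.36 ± 0.36 (adjusted p = 0.0051 and 0.0025). The mitochondrial RNA polymerase gene Polrmt passed the same test on few molecules, 16 and 3 UMIs. Gabpa is named after its values were seen. Of 13 testable genes in the list of PGC-1 relatives, partners and mitochondrial transcription factors (21 listed), 4 were higher and none lower than in fibroblast-like cells, where 15.7% of the 4905 tested genes outside the clustering were higher and 11.9% lower. With cells over 10% mitochondrial transcripts left out, only Esrra was still higher among 11 testable genes of the list, and Gabpa (adjusted p = 0.083) and Prkaa2 (0.071) did not pass. Polrmt was not testable there.

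Against the mean of the 9 other classes, 5 of the 13 were higher and none lower, with 20% of tested genes higher and 6.75% lower in that contrast. The 5 were Esrra, Polrmt, Prkaa2, Tfb2m and Gabpa. That contrast is the one by which the 7 genes were chosen, and nothing about them is read from it. In fibrocyte-like cells at or under 10% mitochondrial transcripts, 3 of 11 testable genes of this list were higher and none lower, against 13.3% and 4.19% of all tested genes. The relatives of PGC-1α were sparse: Ppargc1b had 13 and 3 UMIs in fibrocyte-like cells, against 2 and 2 UMIs in fibroblast-like cells, and Pprc1 had 4 and 4 UMIs against 8 and 3.

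Nuclear genes of the respiratory chain, the machinery that PGC-1α is known to raise, were higher throughout the list. All 29 listed genes were tested and all 29 were higher in fibrocyte-like than in fibroblast-like cells, with a median log2 fold change of 1.64 beside 0.04 over all tested genes. All 29 were also higher against the mean of the other classes, with a median of 1.51 beside 0.14. Cox7a1, the heart and muscle form of a cytochrome oxidase subunit, led with 430 and 733 CPM against 14.2 and 23.3 CPM in fibroblast-like cells, a log2 fold change of 4.97 ± 0.32 (SE, edgeR adjusted p = 6.9e-18). Cytochrome c itself, Cycs, held 648 and 816 CPM against 113 and 97.4 CPM. Cox5a held 782 and 921 CPM against 126 and 109 CPM, and Ndufa4 held 2715 and 2488 CPM against 614 and 553 CPM. The 6 spiral ganglion neuron-like cells, outside the fit, held more Cox5a, at 1390 CPM. No other class passed both fibrocyte-like libraries for Cox7a1, Cycs or Ndufa4, but for Cycs and Ndufa4 others came level. Cycs reached 706 CPM in stria intermediate-like cells, also outside the fit, which lies between the fibrocyte-like libraries. Ndufa4 reached 2481 CPM in the spiral ganglion neuron-like cells, close to the 2488 CPM of fibrocyte-like library 2. With cells over 10% mitochondrial transcripts left out, 28 of 29 were still higher than the mean of the other classes.

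The citric acid cycle, which feeds the respiratory chain, followed. Its list of 18 genes counts subunits of an enzyme singly and includes the cytosolic Mdh1. Of these 18 genes 17 were higher in fibrocyte-like than in fibroblast-like cells and none lower, with a median log2 fold change of 1.43. Of all tested genes 15.7% were higher and 11.9% lower in that contrast. Idh3a, a subunit of NAD-dependent isocitrate dehydrogenase, held 192 and 239 CPM against 42.5 and 28.4 CPM. Mdh1, the malate dehydrogenase of the cytosol and not of the mitochondrial cycle, held 842 and 1108 CPM against 204 and 184 CPM. Ogdh, a subunit of oxoglutarate dehydrogenase, held 176 and 242 CPM against 27.5 and 34.5 CPM. Each of these 3 was higher than in fibroblast-like cells in both libraries. The 6 spiral ganglion neuron-like cells, outside the fit, held more Idh3a and Ogdh than fibrocyte-like cells, at 388 and 624 CPM. Their Mdh1, at 1060 CPM, lay between the fibrocyte-like libraries. All 18 were higher against the mean of the other classes (20% of all tested genes), and 16 of 18 in cells at or under 10% mitochondrial transcripts (13.3%).

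Plin4, the lipid droplet coat gene, was high in both fibrocyte-like libraries and near 0 in the other classes. It held 88.7 CPM in library 1 (65 UMIs) and 126.2 CPM in library 2 (58 UMIs), against 5.01 and 2.03 CPM in fibroblast-like cells. The mean of 107 ± 26.5 CPM (SD, n = 2) was 30.6 times that of fibroblast-like cells, which were next in order at 3.52 CPM. Cells led by Col2a1 followed at 1.17 ± 1.65 CPM and cells led by Lox at 1.00 ± 0.361 CPM, the libraries of the Col2a1-led cells overlapping those of both neighbours, and 6 of the fit classes were at 0. None of the 34 other library sums reached either fibrocyte-like library, and the highest was the fibroblast-like sum of library 1.

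The 9 cells with marginal markers had no Plin4 UMI among 61502 UMIs, and library 2 without them stood at 146 CPM. A Plin4 UMI was seen in 46.8% and 48.5% of fibrocyte-like cells, against 3.87% and 1.19% of the shallower fibroblast-like cells, not matched for depth. The level was uneven within the class. In library 1 the highest counts were 10, 8 and 7 Plin4 UMIs, in deep cells of 33090, 27938 and 27062 UMIs, while a cell of 28029 UMIs held none. The class mean is therefore not the level of a typical cell, and the part of depth was not tested. Plin4 is a gene known from adipocytes and muscle. The adipocyte markers (Adipoq, Cfd, Lep, Retn and Pck1) had 1 and 0 UMIs in the fibrocyte-like class and the skeletal muscle markers (Acta1, Myh1, Myh4, Tnnt3, Mylpf and Tnnc2) 3 and 2 UMIs, all far below the UMIs of Plin4 itself. Plin4 (chr17:56100591-56109803, minus strand) overlaps Hdgfl2 on the other strand, and the sources used here do not say whether counting used strand. Hdgfl2, listed as Hdgfrp2, was even between the classes, at 47.8 and 43.5 CPM in fibrocyte-like cells against 35.9 and 43.6 CPM in fibroblast-like cells.

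The other perilipins did not share the pattern of Plin4. Plin2, the perilipin of most non-adipose cells, was lower in fibrocyte-like cells, with 8.19 and 15.2 CPM against 36.7 and 39.6 CPM in fibroblast-like cells and a log2 fold change of -1.76 ± 0.43 (SE, edgeR adjusted p = 0.00097). Plin3 held 127 and 97.9 CPM against 143 and 124 CPM (log2 fold change -0.21 ± 0.24, edgeR adjusted p = 0.58). Against the mean of the other classes Plin3 was higher, by 0.68 ± 0.20 (edgeR adjusted p = 0.0077). Plin1 and Plin5 had no UMI, where 3 UMIs would be 4.09 and 6.53 CPM. Elsewhere in the lipid droplet list, G0s2, an inhibitor of the main triglyceride lipase, was higher at 696 and 551 CPM against 62.6 and 92.3 CPM (3.06 ± 0.31, adjusted p = 3.0e-09). Abhd5, which activates that same lipase, was higher at 38.2 and 37.0 CPM against 20.0 and 14.2 CPM (1.13 ± 0.40, adjusted p = 0.027). The call of Abhd5 was lost without the library block (adjusted p = 0.060), with DESeq2 (0.086), with cells over 10% mitochondrial transcripts left out (0.12), at the finer clustering of resolution 2 (0.052) and with fibrocytes defined by the 3 markers alone (0.44). In sum 2 of 11 testable lipid droplet genes (17 listed) were higher than in fibroblast-like cells and 1 was lower, shares near the 15.7% and 11.9% of all tested genes. Against the mean of the other classes it was 5 higher and 1 lower, beside 20% and 6.75% of all tested genes. With cells over 10% mitochondrial transcripts left out it was 2 higher and 1 lower, beside 13.3% and 4.19%.

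Fatty acid uptake and oxidation genes were higher in part. Of 24 testable genes (25 listed) 10 were higher than in fibroblast-like cells and none lower, beside 15.7% and 11.9% of all tested genes. Their median log2 fold change was 0.68. Against the mean of the other classes 16 were higher, beside 20% of all tested genes. Hadhb, the beta subunit of the mitochondrial trifunctional protein, held 224 and 233 CPM against 101 and 80.2 CPM. Slc27a1, a fatty acid transporter, held 58.7 and 82.7 CPM against 35.9 and 34.5 CPM. Lpl, lipoprotein lipase, had 17 and 13 UMIs in fibrocyte-like cells and none in fibroblast-like cells, but stood at up to 162 CPM in epithelium led by Rnase1. Fabp3, a fatty acid binding protein of heart, held 24.6 and 74.0 CPM against 5.01 and 3.04 CPM. Supporting cell-like cells led by Rbp7, a class outside the fit, held far more Fabp3, at 4483 CPM, and also more Slc27a1, at 112 CPM. The call of Fabp3 against the mean of the other classes was lost without the 9 marginal-marker cells, where its log2 fold change was 0.95 against 2.07 with them. In cells at or under 10% mitochondrial transcripts 10 of the 24 were higher than the mean of the other classes, beside 13.3% of all tested genes.

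Bdh1 (chr16:31422280-31458901, plus strand), the β-hydroxybutyrate dehydrogenase, was high in both fibrocyte-like libraries. It held 152.8 CPM in library 1 (112 UMIs) and 102.3 CPM in library 2 (47 UMIs), against 9.18 and 4.06 CPM in fibroblast-like cells. The mean was 128 ± 35.7 CPM (SD, n = 2), 19.3 times that of fibroblast-like cells at 6.62 ± 3.62 CPM. Epithelium led by Rnase1 followed at 4.92 ± 6.95 CPM, which did not differ from the fibroblast-like level beyond the spread. All 34 other library sums lay below both fibrocyte-like values, with the spiral ganglion neuron-like cells nearest at 44.5 CPM from 10 UMIs. A Bdh1 UMI was seen in 74.5% and 57.6% of fibrocyte-like cells, against 3.23% and 2.38% of the shallower fibroblast-like cells, not matched for depth. Its antisense neighbour Gm15743 had 0 and 2 UMIs in the fibrocyte-like class.

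Oxct1, which activates acetoacetate as the next step of ketone body use, was high beside Bdh1. It held 742 and 918 CPM in fibrocyte-like cells against 103 and 89.3 CPM in fibroblast-like cells, a log2 fold change of 3.12 ± 0.25 (SE, edgeR adjusted p = 8.7e-17), and 3.45 ± 0.15 against the mean of the other classes (adjusted p = 8.1e-31). The 19 stria intermediate-like cells of library 2, a class outside the fit, held 926 CPM (exact 95% Poisson interval 734 to 1152), which overlapped the fibrocyte-like level. Acat1, the mitochondrial acetoacetyl-CoA thiolase that completes the step, held 150 and 157 CPM against 129 and 126 CPM (0.28 ± 0.24, adjusted p = 0.45). Bdh2, a cytosolic relative of Bdh1, was highest in epithelium led by Ucma at up to 766 CPM, against 127 and 161 CPM in fibrocyte-like cells.

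The ketone list also held a gene that was lower than in fibroblast-like cells. Slc16a6, a monocarboxylate transporter known to carry ketone bodies out of hepatocytes in zebrafish, was lower in fibrocyte-like cells with 4.09 and 2.18 CPM against 35.9 and 46.7 CPM in fibroblast-like cells (-3.51 ± 0.56, adjusted p = 6.3e-07). Slc16a6 is named here after its values were seen. Of 6 testable ketone genes beyond Bdh1 (7 listed), 1 was higher than in fibroblast-like cells and 1 lower, shares near the 15.7% and 11.9% of all tested genes. Against the mean of the other classes 3 were higher and none lower, beside 20% and 6.75% of all tested genes. In cells at or under 10% mitochondrial transcripts 2 of 6 were higher, beside 13.3%.

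**Figure D2:**
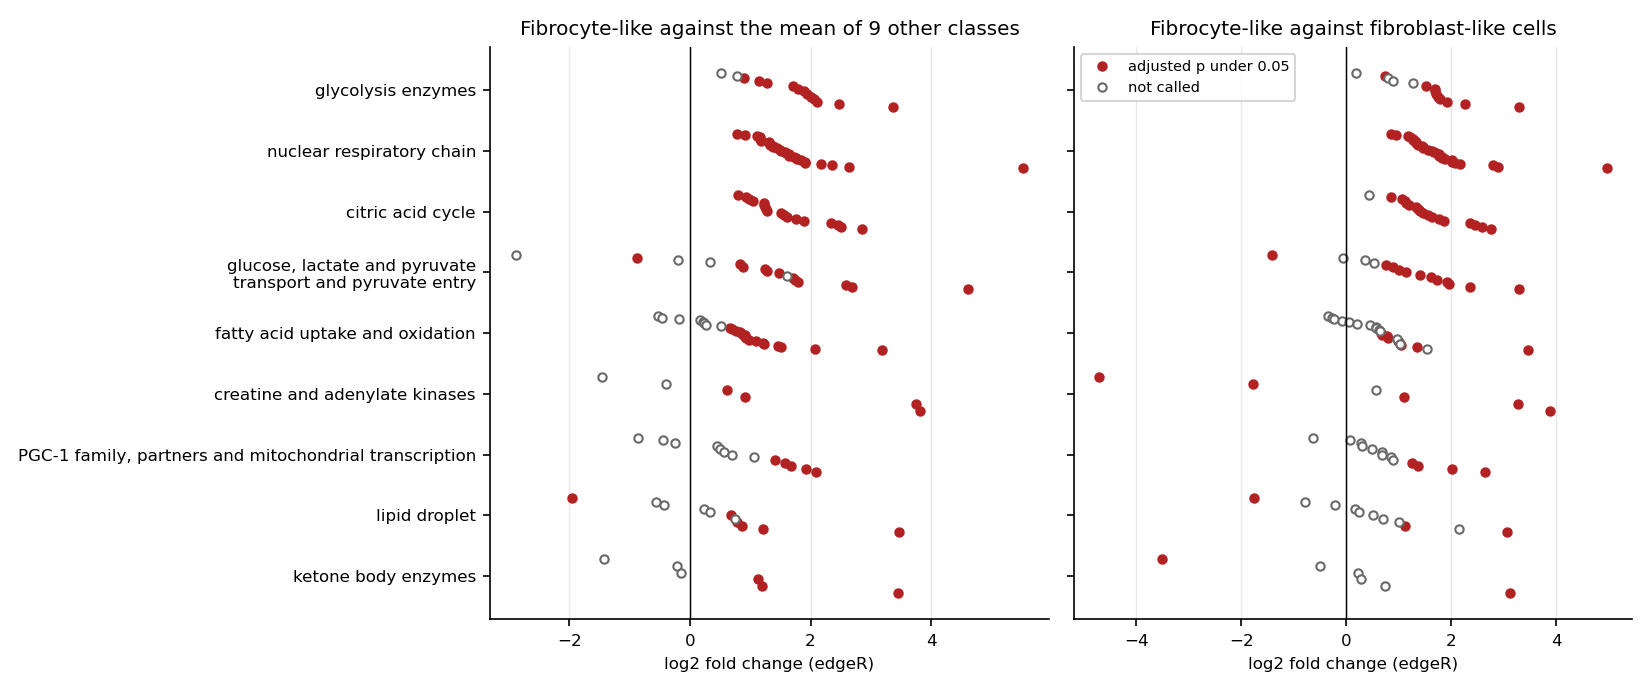
Log2 fold change of every tested gene of the 9 pathway lists, fibrocyte-like cells against the mean of the 9 other classes (left) and against connective tissue fibroblast-like cells (right), with filled points for genes past an adjusted p of 0.05 (edgeR); Lpl, which has no UMI in fibroblast-like cells, is not drawn on the right. Respiratory chain and citric acid cycle points all lie above 0 in both panels, while the ketone and lipid droplet lists spread to both sides.

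Both subunit genes of lactate dehydrogenase stood higher in fibrocyte-like cells than in any other class of the fit. Ldha held 794 and 775 CPM in fibrocyte-like cells (582 and 356 UMIs) against 240 and 314 CPM in fibroblast-like cells. Its mean of 784 ± 13.7 CPM (SD, n = 2) was 2.83 times the fibroblast-like mean. Next in order were cells led by Lox at 420 ± 74.2 CPM, cells led by Col2a1 at 398 ± 19.6 CPM and cells led by Tnfaip6 at 391 ± 174 CPM, which did not differ beyond their spread. All 34 other library sums were lower, with B lineage-like cells of library 1 nearest at 729 CPM. The annotation names 2 pseudogenes each for Ldha and Ckb, none of them listed in the count tables, so reads shared with them cannot be traced.

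Ldhb held 1062 and 1195 CPM in fibrocyte-like cells (778 and 549 UMIs) against 259 and 181 CPM in fibroblast-like cells. Its mean of 1128 ± 94.2 CPM (SD, n = 2) was 5.14 times the fibroblast-like mean. The next classes were again epithelial, with epithelium led by Rnase1 at 345 ± 131 CPM and epithelium led by Ucma at 340 ± 8.81 CPM, which overlapped. Of the other sums 33 of 34 lay below both fibrocyte-like libraries. The exception was the supporting cell-like class led by Rbp7, at 1098 CPM from 28 cells of library 1. In the 9 marginal-marker cells Ldhb stood at 2325 CPM and Ldha at 390 CPM, and library 2 without them held 1020 CPM of Ldhb and 834 CPM of Ldha.

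The balance of the subunit genes was followed as the share of Ldhb in the UMIs of Ldha and Ldhb together, a share that is compared between classes only. It was 57.2% in library 1 (exact binomial 95% interval 54.5 to 59.9) and 60.7% in library 2 (57.4 to 63.9), or 55.0% in library 2 without the 9 marginal-marker cells, whose own share was 85.6%. In library 2 without those cells and at or under 10% mitochondrial transcripts it was 52.4% (45.4 to 59.2). In the cells that carried a UMI of each of Otos, Car3 and Kcnk2, most of them outside the cluster, it was 46.4% and 38.8%. Fibroblast-like cells had 51.8% and 36.6%, cells led by Lox 30.9% and 25.6%, and cells led by Nov 29.3% and 28.8%. Neural and epithelial classes were at the other end, with 98.2% in spiral ganglion neuron-like cells, 98.7% in supporting cell-like cells led by Rbp7, 84.1% in hair cell-like cells of library 1, and 79.7% and 67.6% in epithelium led by Ucma. B lineage-like cells of library 1 had 2.06%. Fibrocyte-like cells had the highest summed level of the subunits among the 10 fit classes.

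**Figure D3:**
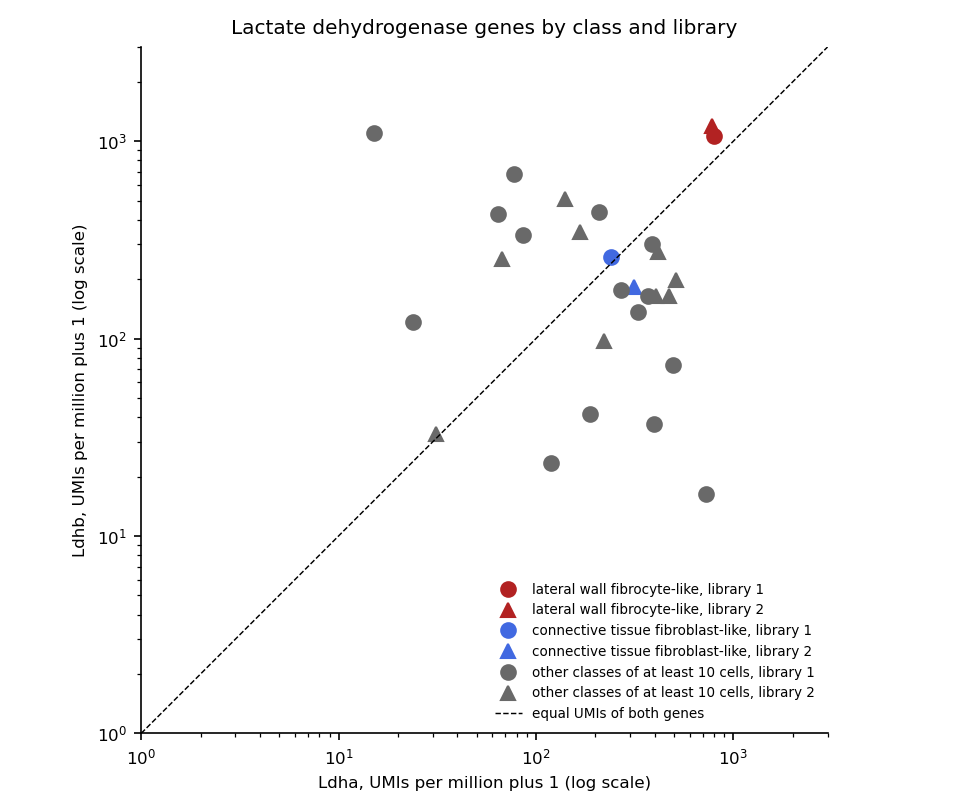
Ldhb against Ldha level in CPM plus 1 on log axes, 1 point per library and class of at least 10 cells, with a dashed line of equal UMIs. The fibrocyte-like points sit at the upper right, just above the line (57.2% and 60.7% Ldhb), with epithelial classes well above the line and most mesenchymal and blood classes below it.

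Most glycolytic enzymes upstream of lactate dehydrogenase were higher as well. Of 14 testable enzymes (20 listed) 10 were higher than in fibroblast-like cells and none lower, beside 15.7% and 11.9% of all tested genes. Their median log2 fold change was 1.70. Against the mean of the other classes 12 were higher, beside 20% of all tested genes. The count was also 12 with cells over 10% mitochondrial transcripts left out, beside 13.3%. Eno1, an enolase, held 547 and 707 CPM against 135 and 128 CPM, and Pgam1, a phosphoglycerate mutase, held 468 and 583 CPM against 139 and 139 CPM. Classes outside the fit stood higher. Eno1 reached 927 CPM in epithelium led by Fabp7, and Pgam1 784 CPM in the 6 spiral ganglion neuron-like cells. Pfkfb3, which makes the activator of phosphofructokinase, passed the test but was uneven between libraries, with 5 and 24 UMIs. Pfkp, a phosphofructokinase, was higher than the mean of the other classes (2.47 ± 0.43, edgeR adjusted p = 3.1e-06). It held 31.4 and 32.6 CPM against 16.7 and 18.3 CPM in fibroblast-like cells, a contrast it did not pass (0.88 ± 0.49, edgeR adjusted p = 0.19). The spiral ganglion neuron-like cells held 151 CPM of Pfkp.

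Aldoc (chr11:78322968-78327781, plus strand) went against the label. Fibrocyte-like cells held 6.82 CPM in library 1 and 2.18 CPM in library 2, from 5 UMIs and 1 UMI, and ranked 5 among the 10 fit classes at 4.50 ± 3.29 CPM (SD, n = 2). Fibroblast-like cells held 3.34 CPM and 0 CPM, from 4 and 0 UMIs. The 1 UMI of fibrocyte-like library 2 lay in a marginal-marker cell, so without those cells the count was 0. Epithelium was the main site of Aldoc. Cells led by Fabp7, Krt18 and Fzd9 held 310 and 129 CPM, supporting cell-like cells led by Otol1 held 99.4 and 131 CPM, epithelium led by Ucma held 246 and 75.2 CPM, and epithelium led by Rnase1 held 98.3 and 93.1 CPM. The 6 spiral ganglion neuron-like cells of library 1 held 200.5 CPM.

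The aldolase of the fibrocyte-like class was Aldoa, the form known from muscle and most tissues. Aldoa held 1430 and 1371 CPM against 448 and 400 CPM in fibroblast-like cells (log2 fold change 1.74 ± 0.30, SE, edgeR adjusted p = 4.9e-06). Aldoc made up 0.475% and 0.158% of the UMIs of Aldoa and Aldoc in fibrocyte-like cells, against 49.6% and 30.2% in epithelium led by Fabp7. Ldhc, the testis lactate dehydrogenase, had no UMI in fibrocyte-like cells.

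Genes that bring glucose and pyruvate to these enzymes were mostly higher. Of 16 testable genes (20 listed) 11 were higher than in fibroblast-like cells and 1 lower, beside 15.7% and 11.9% of all tested genes. Their median log2 fold change was 1.07. Slc2a4, the insulin-responsive glucose transporter GLUT4 of muscle and fat, held 23.2 and 56.6 CPM against 3.34 and 4.06 CPM (3.30 ± 0.63, SE, edgeR adjusted p = 2.2e-05), and no other library sum exceeded 11.5 CPM. Slc2a1, the widely expressed transporter GLUT1, held 60.0 and 84.9 CPM against 14.2 and 13.2 CPM (2.37 ± 0.37, adjusted p = 3.4e-07). Pdhb, a subunit of pyruvate dehydrogenase, held 161 and 107 CPM against 42.5 and 39.6 CPM, and Pcx, pyruvate carboxylase, 27.4 ± 1.80 CPM against 7.03 ± 4.21 CPM (SD, n = 2 each). Both were exceeded elsewhere. The 6 spiral ganglion neuron-like cells held 232 CPM of Pdhb, and epithelium led by Rnase1 held up to 39.9 CPM of Pcx.

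Pdk1, a kinase that switches pyruvate dehydrogenase off, was the gene that was lower, at 21.8 and 21.8 CPM against 58.4 and 58.8 CPM (-1.41 ± 0.33, edgeR adjusted p = 0.00060). The monocarboxylate transporters of the list, which move lactate and ketone bodies across the cell membrane, had few UMIs in either class: Slc16a1 had 3 and 1 UMIs in fibrocyte-like cells against 4 and 1 in fibroblast-like cells, and Slc16a3 had 0 and 1 against 0 and 0. Slc16a1 reached 40.8 CPM in erythroid-like cells. Slc16a7 had no UMI in fibrocyte-like cells. These transporters are named after their values were seen. Against the mean of the other classes the list again gave 11 higher and 1 lower, beside 20% and 6.75% of all tested genes. In cells at or under 10% mitochondrial transcripts it gave 10 higher and none lower, beside 13.3% and 4.19%.

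Ckb (chr12:111669361-111672338, minus strand), the brain-type creatine kinase, held 2301 CPM in library 1 (1686 UMIs) and 2246 CPM in library 2 (1032 UMIs), against 296 and 208 CPM in fibroblast-like cells. It was seen in every fibrocyte-like cell, and in 68.4% and 58.3% of the shallower fibroblast-like cells, shares that are not matched for depth. The mean of 2273 ± 38.6 CPM (SD, n = 2) was 9.02 times the fibroblast-like mean. The order below ran through cells led by Lox at 682 ± 224 CPM, cells led by Col2a1 at 488 ± 233 CPM, macrophage-like cells at 443 ± 14.5 CPM and cells led by Tnfaip6 at 406 ± 13.2 CPM, and the spread of the first and the next overlapped. All 34 other library sums were lower. The nearest were the spiral ganglion neuron-like cells at 1693 CPM and the supporting cell-like class led by Rbp7 at 1606 CPM.

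The other creatine kinases were almost uncounted in fibrocyte-like cells. Ckm, the muscle form, had no UMI, and the mitochondrial forms Ckmt1 and Ckmt2 had 1 and 5 UMIs and 0 and 1 UMI. Slc6a8, the creatine transporter, was higher with 252 and 155 CPM against 24.2 and 18.3 CPM in fibroblast-like cells (log2 fold change 3.27 ± 0.29, SE, edgeR adjusted p = 4.0e-15), and Ak1, a cytosolic adenylate kinase, with 124 and 163 CPM against 9.18 and 10.1 CPM (3.88 ± 0.49, adjusted p = 3.0e-06). The enzymes of creatine synthesis were lower: Gamt held 13.6 and 13.1 CPM against 54.2 and 38.6 CPM (adjusted p = 0.00040), and Gatm had 1 and 1 UMIs against 104 and 7 UMIs (adjusted p = 0.00033). Gamt and Gatm are named after their values were seen. Of 6 testable genes (11 listed) 3 were higher than in fibroblast-like cells and 2 lower, where 15.7% of all tested genes were higher and 11.9% lower. Against the mean of the other classes 4 were higher and none lower, beside 20% and 6.75% of all tested genes. In cells at or under 10% mitochondrial transcripts 2 were higher in that contrast, beside 13.3%.

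Within the fibrocyte-like class most cells held UMIs of several of the genes. A median of 5 of the 7 genes was seen per cell in each library, with a range of 3 to 7 in library 1 and 1 to 6 in library 2. At least 5 were seen in 29 of 47 and 21 of 33 cells, against 1 of 155 and 0 of 168 fibroblast-like cells. In library 1 the same held for 5 of 6 spiral ganglion neuron-like cells, whose median was also 5. It held there for 8 of 43 cells of epithelium led by Fabp7 and 4 of 16 led by Rnase1, and for none of either in library 2. After thinning to 3000 UMIs at least 5 were seen in 4 fibrocyte-like cells in each library, in 1 spiral ganglion neuron-like cell and in no fibroblast-like cell. All of Plin4, Bdh1 and Ppargc1a were seen in 17 and 11 cells, and none of them in 6 and 6 cells, of which 3 in library 2 were marginal-marker cells.

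The genes differed in direction when fibrocyte-like cells were divided at 10% mitochondrial transcripts, with many of the intervals overlapping. There were 17 and 18 cells over the limit and 30 and 15 at or under it, with median depths of 15046 and 13848 UMIs against 11443 and 6063 UMIs. Ppargc1a held 228 and 190 CPM in cells over 10%, against 126 and 120 CPM in the others. The 95% Poisson intervals were apart in library 1 (177 to 290 against 95.2 to 165) and overlapped in library 2. All these intervals cover counting error only and leave out the spread between cells, so intervals that are apart do not show that the sets differ. In library 1 a single cell over 10% held 14 of the 68 Ppargc1a UMIs. Bdh1 held 191 and 126 CPM against 126 and 44.9 CPM, and Plin4 114 and 135 CPM against 71.2 and 105 CPM. The intervals of Bdh1 and of Plin4 overlapped in both libraries. In library 2 without the marginal-marker cells, 16 cells over the limit held 201 CPM of Ppargc1a, 132 of Bdh1 and 145 of Plin4, against 84.3, 42.1 and 147 CPM in 8 cells at or under it, so the direction of Plin4 did not hold there.

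Ckb ran the other way, with 1720 and 2038 CPM in cells over 10% against 2698 and 2753 CPM in the others. Ldha held 699 and 727 CPM against 859 and 890 CPM, and Ldhb 984 and 955 CPM against 1115 and 1780 CPM. The 7 cells with marginal markers at or under 10% in library 2 lie behind the last value, since without them Ldhb stood at 1169 CPM there. The other values in library 2 without them, from 8 cells, were 2697 CPM for Ckb and 1064 for Ldha. Over the limit the 16 remaining cells held 2056 CPM of Ckb, 762 of Ldha and 973 of Ldhb. The marker Otos differed between the same sets of cells, with 2022 and 660 CPM over the limit against 570 and 187 CPM at or under it. The part of mitochondrial content, depth and Otos level in these differences was not tested. In both sets of cells and both libraries, the 6 genes other than Aldoc stayed above the fibroblast-like level. The genes were picked also with cells over 10% left out, so this follows from the choice and is no check on it.

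**Figure D4:**
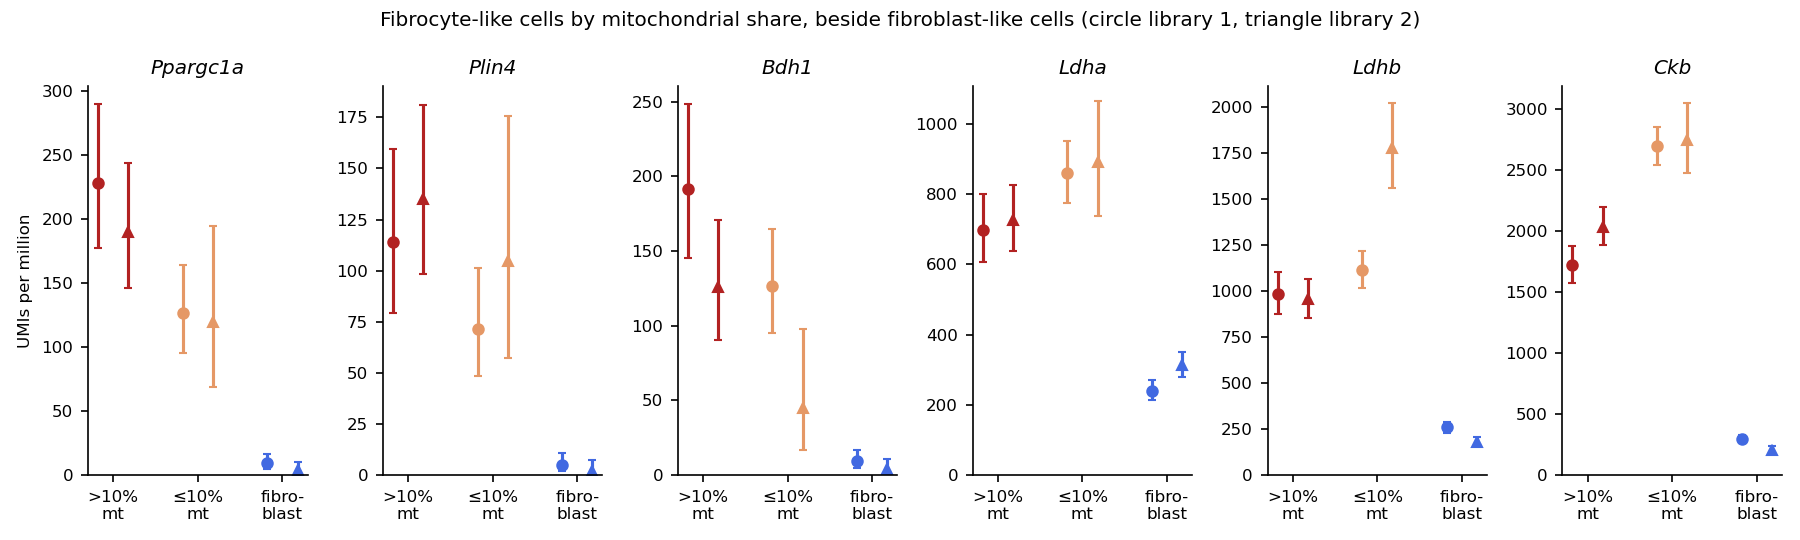
Level of 6 of the genes (Aldoc is not drawn) in CPM in fibrocyte-like cells over 10% and at or under 10% mitochondrial transcripts and in fibroblast-like cells, a circle for library 1 and a triangle for library 2, with exact 95% Poisson intervals as bars. Ppargc1a and Bdh1 are higher in cells over 10% mitochondrial transcripts (Ppargc1a 228 and 190 CPM against 126 and 120 CPM) and Ckb is lower (1720 and 2038 CPM against 2698 and 2753 CPM). Every point lies above the fibroblast-like points, which follows from how the genes were picked.

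The genes with the most similar pattern to each member were found by Pearson correlation of log2(CPM + 10) over the 20 library-by-class sums. This is a description over sums that share libraries and depth, with no test. Plin4 and Bdh1 were picked as high in the fibrocyte-like class and were low in all other sums. Their correlations are therefore set mostly by the fibrocyte-like sums, and a gene counted almost only there scores near the top. Their partners were low even there, with Tmem35 at 21.8 and 26.1 CPM and Nell2 at 21.8 and 21.8 CPM. Plin4 was nearest to Tmem35 (r = 0.996), Nell2 (0.989) and Cend1 (0.983), and Bdh1 to Nell2 (0.974), Tmem35 (0.966) and Plin4 itself (0.965). Ppargc1a was nearest to Eps8l2 (0.952), Got2 (0.949) and Hhatl (0.949). For Ldhb the nearest were Atp5d (0.953), Ndufa11 (0.947) and Acadsb (0.938), for Ldha Isyna1 (0.927), Reps2 (0.908) and Slc12a4 (0.905), and for Ckb Ppm1h (0.926), Tmem63b (0.902) and Atp1b3 (0.895). Aldoc stood apart, nearest to Prss8 (0.972), Cst6 (0.967) and Cldn7 (0.964).

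The edgeR log2 fold changes of the genes against fibroblast-like cells were 4.62 for Ppargc1a, 4.26 for Bdh1, 4.81 for Plin4, 3.20 for Ckb, 1.52 for Ldha and 2.38 for Ldhb. Aldoc was at 1.34 on 6 UMIs in fibrocyte-like and 4 in fibroblast-like cells. They are values with no test, and library by library, as log2 CPM differences with a prior count, they ran from 3.88 to 4.71 for Ppargc1a, from 3.75 to 3.99 for Bdh1, from 3.61 to 4.82 for Plin4, from 2.98 to 3.41 for Ckb, from 1.30 to 1.75 for Ldha and from 2.06 to 2.71 for Ldhb. When fibrocytes were instead taken as every cell with a UMI of each of Otos, Car3 and Kcnk2, 141 and 42 cells of which only 29 and 14 were in the cluster, the values were 2.60 for Ppargc1a, 1.87 for Bdh1, 3.65 for Plin4, 1.49 for Ckb, 0.73 for Ldha and 0.66 for Ldhb.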

How the data were processed

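Per the submitters' processing notes, reads were processed with Cell Ranger 2.1.0 against mm10, and the authors deposited raw UMI counts per gene and barcode for 2 libraries. Barcodes were kept from 300 genes up and to 20% mt- UMIs, Scrublet doublets removed (2 and 4), and cells clustered (scanpy 1.11.5, Leiden resolution 1) with the 7 genes, all list genes and mt- genes held out. Left out were 275 and 60 barcodes with few genes and 4 and 16 with high mt- UMIs.

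Counts were summed per library and class. In edgeR 4.0.16 (R 4.3.3, TMM, minimum count 10, library as replicate block, since classes of a library come from the same suspension) 20 sums and 9920 genes were fitted, with adjusted p under 0.05 over 4905 genes held out of clustering. In simulated data of the contrast with the mean of the other classes (9920 genes), 48 of 49 genes 4-fold higher, 36 of 46 genes 2-fold higher, 33 of 49 genes 4-fold lower and 7 of 47 genes 2-fold lower were recovered, with 7 false calls among 131. CPM scales each class sum to 1e6 UMIs.

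Named are the 7 genes and, per list, up to 4 called genes with the largest positive and 2 with the largest negative change against the mean of the other classes, relatives of the 7, and the 3 genes most similar to each; a few genes the rule names are not reported here. Members, lists and markers were chosen with earlier results of these data known.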

Additional observations from a re-analysis of the deposited data

Results flagged for a closer look

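Barcodes left out for more than 20% mitochondrial transcripts still carried UMIs of the fuel genes, which marks a signal in data outside the comparisons. In library 1, 4 such barcodes with 28407 UMIs held 5 UMIs of Ppargc1a, 34 of Ckb, 7 of Ldha and 20 of Ldhb. In library 2, 16 such barcodes with 132338 UMIs held 21 UMIs of Ppargc1a, 5 of Bdh1, 212 of Ckb, 46 of Ldha and 147 of Ldhb. The same barcodes held 33 and 82 UMIs of Kcnk2, 71 and 45 of Car3, and 0 and 102 of the marginal cell marker Kcne1. Which cells they were was not tested.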

How the results depend on the processing

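With the library block left out the contrast with the mean of the other classes called 1137 genes, against 1312 with it, and the contrast with fibroblast-like cells 1114, against 1352; the block moved only the lipid droplet counts by over 1.5 times, to 3 and 1 genes higher. The totals otherwise moved by over 1.5 times only where cells were chosen differently. With cells over 10% mt- UMIs left out 821 genes were called against the mean of the other classes, and 807 with the marginal-marker cells left out as well, a choice made after seeing the data, like the classes of at least 4 cells. Counts of higher genes then stood at 10 and 9 for fatty acid genes, 2 and 3 for lipid droplet genes, 2 and 2 for creatine and adenylate kinases, and 3 and 3 for PGC-1 partners. Against fibroblast-like cells the combined setting called 899 genes in all, with 7 transport, 1 lipid droplet and 2 PGC-1 genes higher, and the limit of 10% alone gave 1 lipid droplet and 1 PGC-1 gene. Resolution 2 gave 2 ketone genes and 1 lipid droplet gene, and DESeq2 gave 1 lipid droplet gene.

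Defining fibrocytes by a UMI of each of Otos, Car3 and Kcnk2 lowered most list counts. Against the mean of the other classes 1161 genes were called, within 1.5 times the main count, and 5 glycolysis, 1 transport, 6 citric acid cycle, 1 ketone, 1 fatty acid, 1 lipid droplet, 2 creatine or adenylate kinase and 8 respiratory chain genes were higher. Against fibroblast-like cells 569 genes were called, with 1 glycolysis, 0 transport, 3 citric acid cycle, 1 fatty acid, 1 lipid droplet, 2 PGC-1 and 6 respiratory chain genes higher. Under that definition the log2 fold change against the mean of the other classes turned to 0.41 for Pdk1, -0.16 for Fabp3 and -0.043 for Ak3, and that against fibroblast-like cells to -0.17 for Slc27a1. Only 29 of 141 and 14 of 42 such cells were in the fibrocyte-like cluster, and the part of this in the lower counts was not tested. With cells over 10% mt- UMIs left out, 8 named genes lost their call against the mean of the other classes: Pdk1, Bdh2, Fabp3, Pnpla2, Abhd5, Dgat1, Ak3 and Tfb2m.

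With a library left out no residual test among libraries remains, so only values are given. Depth limits the low genes: 3 UMIs are 4.09 and 6.53 CPM in the fibrocyte-like class.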

Other observations

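The marker genes of the class were not confined to it. In library 2 the 7 cells of epithelium led by Fabp7 held 491 UMIs of Otos, or 4887 CPM, above the 1160 and 522 CPM of the fibrocyte-like class. Car3 stood at 1834 CPM in epithelium led by Ucma in library 1. Fibrocyte-like cells also held 7497 and 13371 CPM in sum of the connective tissue fibroblast list.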
